A study of Mus musculus with 48 samples.

Results

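The nuclear genes for the subunits of respiratory complexes II, III and IV and of ATP synthase were followed in the liver and colon of mice whose dams and own diets differed in selenium and folate. The members were all array probes whose transcript accession maps to *Sdha*, *Sdhb*, *Sdhc*, *Sdhd*, *Cyc1*, or to a symbol starting with *Uqcr*, with *Cox* and a digit from 4 to 8, or with *Atp5*. This gave 57 probes for 48 genes, of 18434 genes that could be named on the array: 4 genes of complex II, 9 of complex III, 18 of complex IV and 17 of ATP synthase. The genes lie on 18 chromosomes, and 53 of the 57 probes were among the brightest 20% of all probes. On all 24 arrays of each tissue 54 probes were well above background. The other 3 probes stand for *Cox4i2*, *Cox7b2* and *Cox8c*. They passed on none of the liver arrays and on 9, 1 and 0 of the colon arrays, so they have only a bound in liver and no fold is given for them.

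The animals were C57/BL6 offspring taken at 12 weeks of age, and the study's methods give a high-fat diet for all of them. The first letter of a group is the diet of the dam from before mating through lactation, and the second is the diet of the pup from weaning, with H for a diet sufficient and L for a diet low in both selenium and folate. The liver groups held 5 HH mice and 6 mice each of HL, LH and LL, because 2 of the 24 liver arrays came from 1 HH animal and were averaged, and each colon group held 6 mice. Selenium and folate were lowered together, so their shares cannot be told apart. Each array compared a mouse (Cy3 dye) with a common reference RNA (Cy5 dye), with no dye swap. GEO's description gives whole pregnant mouse and foetus as the source of the reference, while the methods name a pool of the mice's intestinal and liver RNA. Values are log2 mouse over reference, so that 0 is the level of the reference RNA, and they are read between mice and not between genes. Hepatocyte marker genes had a mean of 1.43 in HH liver and -4.00 in HH colon, and smooth muscle markers a mean of -2.83 and 1.21. Skeletal muscle markers lay far below the reference in both tissues, with a mean of -4.55 in HH liver and -4.73 in HH colon. The source of the reference was not tested. Some arrays stood apart. Those of HH liver replicate 2, HL liver replicates 5 and 6 and HH colon replicates 1 and 4 had a narrow spread of log ratios (SD of 0.53 to 0.69), and 8 arrays showed *Xist*, the transcript of the inactive X chromosome: HL liver 2, LL liver 6, HH colon 1 and 5, HL colon 5 and LL colon 1, 3 and 5. The methods describe male offspring. None of these 8 was an HH or LH liver. Markers of other tissues were high in LH liver replicate 4 (adipocytes at 1.91, the other LH livers at -1.37 or lower) and in HL liver replicate 1 (exocrine pancreas at 1.09, the other HL livers at -1.32 or lower). In these whole tissues, fewer cells of a type and less RNA per cell cannot be told apart.

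Complex II, or succinate dehydrogenase, takes electrons from succinate and is also an enzyme of the citric acid cycle. Complex III passes electrons from ubiquinol to cytochrome c, complex IV uses them to reduce oxygen, and ATP synthase makes ATP with the proton gradient that is built along the way. The liver relies on this chain to oxidise fatty acids. Complexes III, IV and ATP synthase also hold subunits encoded in mitochondrial DNA, for which no probe was named here, whereas complex II is encoded wholly in the nucleus.

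Promoter sequences from RefSeq (build GRCm38.p6) were matched for 36 of the 48 genes, as 39 promoters, and were searched on both strands for letters that transcription factors of mitochondrial genes are known to bind. Letters of the NRF1 type (GCGC, any 2 letters, then GCGC) stood in 7 of the 39 (17.9%) and in 4.98% of all 32851 promoters, in the 250 bases before the start. Letters of the ETS type (CCGGAAG), as bound by GABP, stood in 9 (23.1%) and in 6.91% of all. The GC box GGGCGG stood in 30.8% and 32.7%, the TATA box TATAAA in 7.69% and 12.4%, and the E-box CAGCTG in 5.13% and 13%. The member promoters held a median of 14 CpG dinucleotides, and all promoters a median of 6. A match is a description of the letters and not a measured site.

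The promoters shown are those of the genes on which the liver and tissue comparisons below turn, with matched letters in capitals, each running 5′ to 3′ towards the start of transcription. *Atp5e* (chr2:174464102-174464351, minus strand) has 1 ETS-type match and 2 GC boxes, *Uqcrh* (chr4:116075071-116075320, minus strand) 1 ETS-type match, *Cox7a2* (chr9:79759854-79760103, minus strand) 1 GC box, and *Sdha* (chr13:74350241-74350490, minus strand) 3 NRF1-type matches. The muscle isoform genes differ in their CpG count: *Cox7a1* (chr7:30183921-30184170, plus strand) has 4 CpG and no match, and *Cox8b* (chr7:140900447-140900696, minus strand) has 1 CpG and 1 E-box.
Atp5e: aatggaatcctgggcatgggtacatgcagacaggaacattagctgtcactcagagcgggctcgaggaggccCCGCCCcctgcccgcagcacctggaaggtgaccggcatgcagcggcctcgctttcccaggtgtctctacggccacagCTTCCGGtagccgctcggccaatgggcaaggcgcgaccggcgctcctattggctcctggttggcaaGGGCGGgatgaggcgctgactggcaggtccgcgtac
Uqcrh: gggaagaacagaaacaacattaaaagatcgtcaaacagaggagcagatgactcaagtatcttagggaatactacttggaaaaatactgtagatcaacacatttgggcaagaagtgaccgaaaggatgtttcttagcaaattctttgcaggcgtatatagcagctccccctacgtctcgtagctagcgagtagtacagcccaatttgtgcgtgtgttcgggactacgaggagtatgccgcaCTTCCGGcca
Cox7a2: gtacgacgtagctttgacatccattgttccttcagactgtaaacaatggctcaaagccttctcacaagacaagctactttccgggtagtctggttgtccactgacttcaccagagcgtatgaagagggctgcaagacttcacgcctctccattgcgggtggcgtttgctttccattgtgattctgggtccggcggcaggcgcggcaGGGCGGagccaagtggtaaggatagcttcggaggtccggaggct
Sdha: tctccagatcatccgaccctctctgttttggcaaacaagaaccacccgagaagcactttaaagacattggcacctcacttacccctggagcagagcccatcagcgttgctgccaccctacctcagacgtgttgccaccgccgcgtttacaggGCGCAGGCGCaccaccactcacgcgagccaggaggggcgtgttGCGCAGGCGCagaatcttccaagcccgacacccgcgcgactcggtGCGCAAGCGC
Cox7a1: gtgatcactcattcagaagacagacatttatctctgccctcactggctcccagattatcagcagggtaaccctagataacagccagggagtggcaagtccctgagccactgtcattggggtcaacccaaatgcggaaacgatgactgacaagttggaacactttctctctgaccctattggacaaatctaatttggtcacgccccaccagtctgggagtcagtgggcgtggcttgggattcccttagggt
Cox8b: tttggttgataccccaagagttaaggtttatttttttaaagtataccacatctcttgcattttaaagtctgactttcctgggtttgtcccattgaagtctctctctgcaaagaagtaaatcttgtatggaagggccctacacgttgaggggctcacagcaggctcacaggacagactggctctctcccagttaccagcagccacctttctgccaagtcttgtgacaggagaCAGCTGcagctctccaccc

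The comparison of HH and LH offspring asks what a low diet of the dam did when the pups were then fed the sufficient diet. In liver, many small subunits of complexes III, IV and ATP synthase had lower values in LH than in HH mice, by up to 0.76 on the log2 scale, while the flavoprotein of complex II, *Sdha*, had higher values. No member was called at a fold change over 1.5 and an FDR under 0.05 in any of the 6 pairs of liver groups or the 6 pairs of colon groups (limma, adjusted over all probes). The same holds for all probes, of which 0% were called in liver and 0% in colon. In HH *vs.* LH the lowest adjusted p of a member was 0.137, for *Atp5e*. At an unadjusted p under 0.05, 20 of the 57 probes (35.1%) were lower in LH, against 4.94% of all probes, and 2 (3.51%) were higher, against 5.65% of all probes. Among probes well above background on all arrays the shares were 8.18% lower and 9.28% higher. The median difference over the members was -0.20, and over all probes -0.01. Without LH replicate 4, the liver with high adipocyte markers, 21 were lower and the median was -0.21.

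The direction of these differences is relative to the other bright probes of the array and depends on how the arrays were scaled. With each array only centred on its median, with no loess, the median over the members became 0.01, with 0 probes lower and 11 higher at an unadjusted p under 0.05. That scaling also moved the median of the brightest 20% of probes from -0.02 to 0.23. The members minus those probes lay at -0.17 with the main scaling and at -0.22 with the centring, and between -0.15 and -0.24 under all 6 scalings tried.

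**Figure D1:**
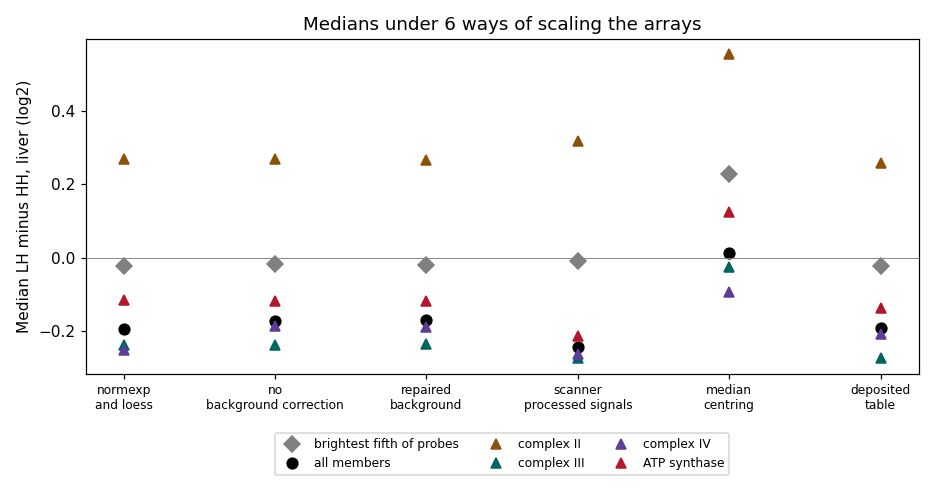
Median LH minus HH difference in liver (y axis, log2) of the member probes, the complexes and the brightest probes under 6 ways of scaling the arrays (x axis). With median centring every series lies higher than with the main scaling, and the members stay below the brightest 20% of probes in all 6.

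*ATP synthase.* The mitochondrial ATP synthase has a catalytic head with alpha and beta subunits, a central stalk and a membrane part. Of its 22 probes, 8 were lower and 1 higher in LH liver at an unadjusted p under 0.05, with a median of -0.12 (0.12 with median centring). *Atp5e*, the epsilon subunit of the central stalk, measured -0.01, -0.20, 0.17, 0.45 and -0.01 in the 5 HH livers. It ran from -0.78 through a median of -0.58 to -0.48 in LH, from -0.67 through -0.27 to 0.32 in HL, and from -0.55 through -0.40 to -0.25 in LL. Every LH mouse and every LL mouse lay below every HH mouse, while HL mice overlapped with both. The LH minus HH difference was -0.69 ± 0.14 (SE; unadjusted p = 5.02e-05, adjusted p = 0.137). *Atp5e* was past the threshold in 2 other fits. Without the 3 liver arrays whose ratios had a narrow spread (HH replicate 2 and HL replicates 5 and 6) the difference was -0.76 with an adjusted p of 0.0382, and without HL replicate 4 alone the adjusted p was 0.033. With median centring it was -0.50 (adjusted p = 0.523).

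Subunits of the membrane part varied. *Atp5mpl*, the small proteolipid subunit, was at -0.71 (unadjusted p = 0.00314), *Atp5md* at -0.51, *Atp5k* at -0.49 and *Atp5j2*, subunit f, at -0.48 (unadjusted p = 0.000402). Smaller values were found for *Atp5l*, subunit g, at -0.11 (unadjusted p = 0.503), and for the c subunit genes *Atp5g1*, *Atp5g2* and *Atp5g3* at -0.07, -0.12 and -0.29 (unadjusted p = 0.553, 0.22 and 0.0628). *Atp5o*, *Atp5j* and *Atp5h* of the peripheral stalk were at -0.26, -0.29 and -0.25, whereas *Atp5pb* of the same stalk was at -0.01 (unadjusted p = 0.923). The alpha and beta subunits of the head had positive differences. *Atp5b*, the catalytic beta subunit, was higher at 0.31 by its brightest probe (unadjusted p = 0.0151, adjusted p = 0.338), and its other probes gave 0.50 and 0.52 (unadjusted p = 0.109 and 0.114). *Atp5a1*, the alpha subunit, had a difference of 0.20 (unadjusted p = 0.0967). With the scanner's processed signals *Atp5b* was at 0.10 (unadjusted p = 0.418) and *Atp5a1* at 0.03 (unadjusted p = 0.774). *Atp5c1* and *Atp5d* were at -0.07 and -0.01.

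**Figure D2:**
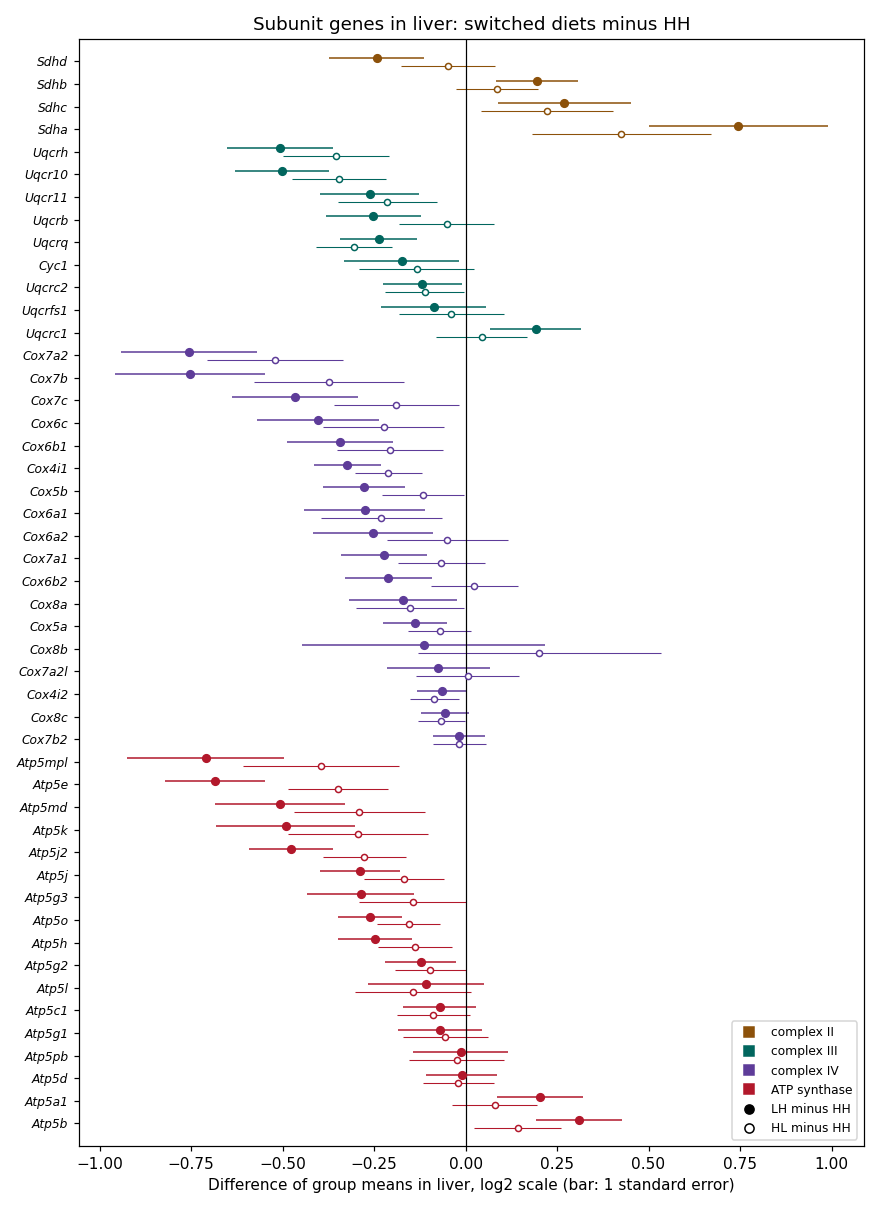
Difference of group means in liver (x axis, log2 scale, bars 1 standard error) of each subunit gene by its brightest probe, for LH minus HH (filled) and HL minus HH (open), coloured by complex. Most LH points of complexes III, IV and ATP synthase lie left of 0, from -0.76 for *Cox7a2*, and *Sdha* lies farthest right at 0.75.

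*Complex III.* Of the 11 probes, 4 were lower in LH liver at an unadjusted p under 0.05 and 0 higher, with a median of -0.24 (-0.03 with median centring). *Uqcrh*, the hinge protein that sits by cytochrome c1, measured -0.62, -0.57, -0.59, -0.08 and -0.47 in HH livers. It ran from -1.17 through -1.02 to -0.74 in LH, from -1.32 through -0.75 to -0.41 in HL and from -0.93 through -0.86 to -0.54 in LL. All LH values lay below all HH values, with HH replicate 4 well above its group. The difference was -0.51 ± 0.15 by this probe and -0.56 ± 0.12 by the dimmer probe of the gene (unadjusted p = 8.62e-05, adjusted p = 0.156), which was also called without the 3 narrow arrays (-0.61, adjusted p = 0.0441). *Uqcr10*, a small subunit of the complex, measured -0.39, -0.31, -0.28, -0.28 and 0.20 in HH and from -0.96 through -0.68 to -0.55 in LH, again with no overlap. Its difference was -0.50 ± 0.13 (adjusted p = 0.167). *Uqcrq* was at -0.24 (unadjusted p = 0.0335). *Uqcrc1*, a large core subunit, was at 0.19 and *Uqcrc2* at -0.12 (unadjusted p = 0.135 and 0.288).

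*Complex IV.* All 19 probes of cytochrome c oxidase had a negative LH minus HH difference in liver, 3 of them from probes below background, and 8 passed an unadjusted p of 0.05. The median was -0.25 (-0.09 with median centring). *Cox7a2*, the form of subunit VIIa found in most tissues, measured 0.39, 0.46, 0.58, 0.66 and 0.80 in HH. It ran from -0.51 through -0.14 to 0.01 in LH, from -0.50 through -0.03 to 0.70 in HL, and from -0.35 through 0.36 to 0.59 in LL. HH and LH mice did not overlap, and HL and LL mice each spread over the range of both. The difference was -0.76 ± 0.19 (unadjusted p = 0.000553, adjusted p = 0.167), and -0.72 by the other probe, which had values for 5 of the 6 LH mice. *Cox7b* was at -0.75, *Cox7c* at -0.47, *Cox6c* at -0.40, *Cox6b1* at -0.34, *Cox4i1* at -0.32 and *Cox5b* at -0.28, each with an unadjusted p under 0.05. *Cox5a* and *Cox8a* were at -0.14 and -0.17 with unadjusted p of 0.124 and 0.259.

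*Complex II.* The 5 probes of succinate dehydrogenase had a median LH minus HH difference of 0.27 in liver (0.56 with median centring). *Sdha*, the flavoprotein that oxidises succinate, measured -0.71, -0.48, -0.19, -0.96 and -0.95 in HH, and ran from -0.24 through 0.03 to 0.65 in LH, from -1.11 through -0.27 to 0.59 in HL and from -0.75 through -0.36 to 0.17 in LL. One HH mouse, replicate 3, lay within the LH range, and the others lay below it. The difference was 0.75 ± 0.25 (unadjusted p = 0.00599, adjusted p = 0.26) by the brightest probe, but 0.43 (unadjusted p = 0.0768) by the other probe. *Sdhb*, the iron-sulphur subunit, was at 0.19, and *Sdhc* and *Sdhd*, the membrane anchors, were at 0.27 and -0.24 (unadjusted p = 0.0983, 0.15 and 0.0721), with *Sdhc* missing 1 liver value.

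**Figure D3:**
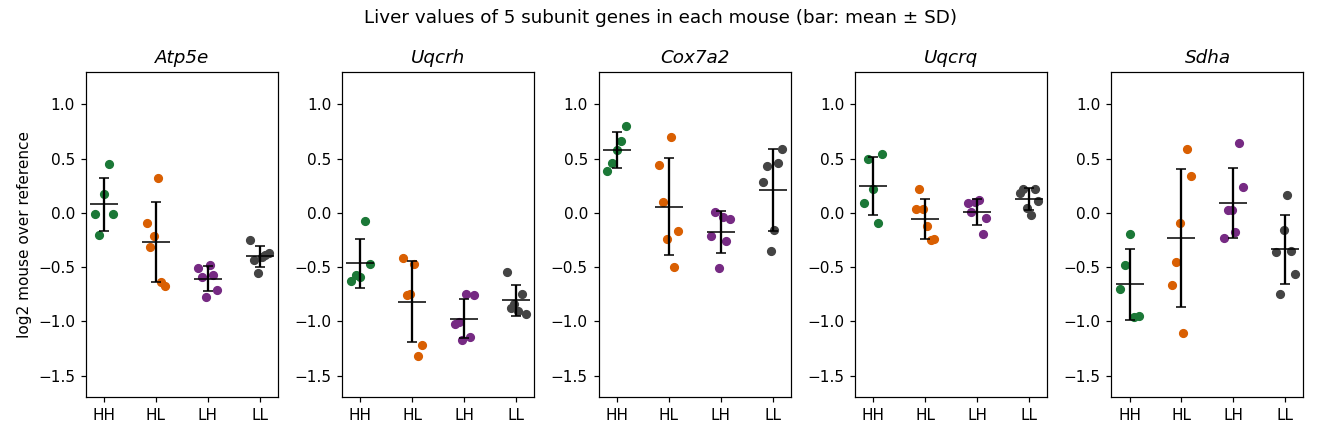
log2 mouse over reference (y axis) in each liver of the 4 diet groups (x axis) for 5 subunit genes, with bars for mean ± SD. LH mice lie below all HH mice for *Atp5e*, *Uqcrh* and *Cox7a2*, overlap with them for *Uqcrq*, and lie mostly above them for *Sdha*.

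In all, 9 of the 57 probes had every LH mouse below every HH mouse, against 0.619% of all probes, and 0 had every LH mouse above. These were the probes of *Uqcr10*, *Uqcrh* (both probes), *Cox7a2* (both probes), *Cox7b*, *Atp5e*, *Atp5j2* and *Atp5mpl*. A slide holds 4 arrays, with each diet group of a tissue once; on the sixth liver slide the HH array is the repeat of HH replicate 3. Within the 6 liver slides the median LH minus HH difference of complexes III, IV and ATP synthase was negative on 6 of 6, between -0.46 and -0.08. That of complex II was negative on 1 of 6. *Atp5e*, *Uqcrh*, *Uqcr10* and *Cox7a2* were lower in the LH mouse on 6 of 6 slides. With slide as a block, 25 probes were lower at an unadjusted p under 0.05, 0 were called, and *Atp5e* had an adjusted p of 0.0516. The share of 4.94% of all probes lower in LH is from the fit without that block.

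Each mouse's median over a complex, with each probe first centred on its mean over the tissue, shows how far the mice moved together. For complex III it was 0.14 ± 0.04 in HH (SD, n = 5) and -0.09 ± 0.08 in LH (n = 6), and for complex IV it was 0.13 ± 0.07 and -0.13 ± 0.12. For ATP synthase it was 0.07 ± 0.05 and -0.11 ± 0.07, and for complex II -0.20 ± 0.24 and 0.13 ± 0.24. For complex III and ATP synthase every LH mouse lay below every HH mouse. For complex IV, HH replicate 3 at 0.01 and LH replicate 1 at 0.02 overlapped. HL mice were widely spread, and LL mice lay near 0. Without the centring, complex III overlapped, from -0.36 to -0.19 in HH and from -0.49 to -0.16 in LH. Its group means were then -0.27 in HH, -0.40 in HL and -0.32 in LH. Complex IV (HH -0.18 to -0.02, LH -0.67 to -0.34) and ATP synthase (HH -0.31 to -0.12, LH -0.74 to -0.36) did not overlap.

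**Figure D4:**
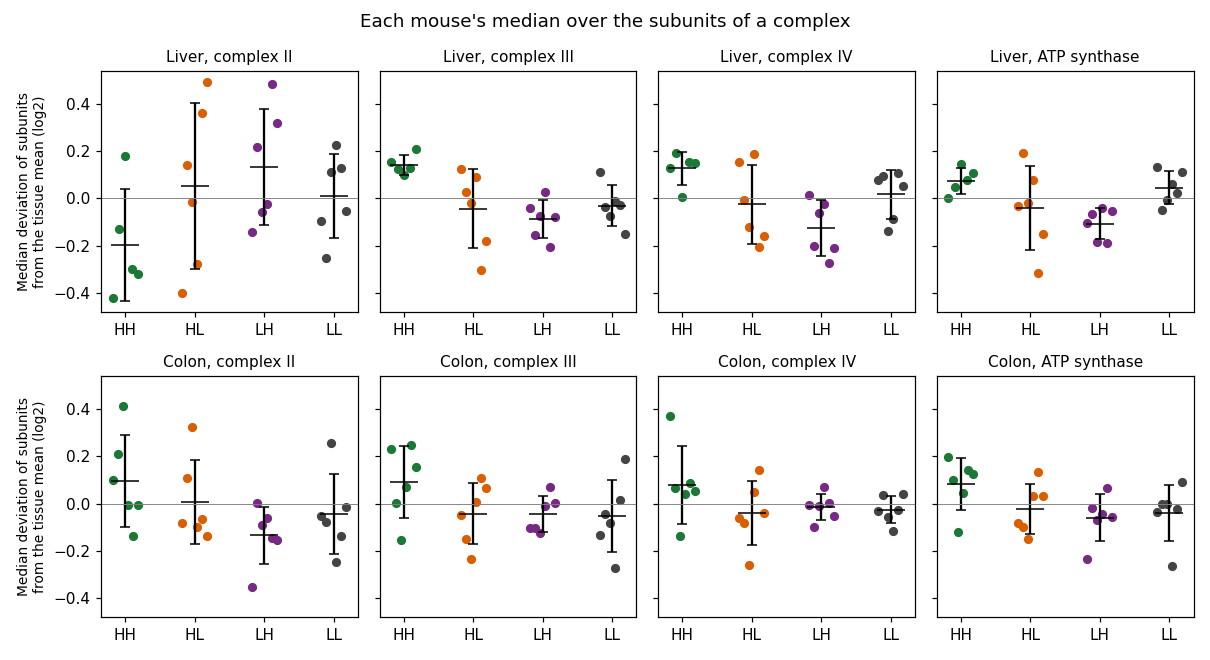
Each mouse's median over the subunit probes of a complex (y axis, log2 deviation from the tissue mean) by diet group (x axis), in liver and colon, with bars for mean ± SD. In liver the group means of complexes III, IV and ATP synthase are highest in HH and lowest in LH, and complex II is lowest in HH and highest in LH.

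Markers of some liver cell types leaned to one side in the same comparison, with 0 called and a lowest adjusted p of 0.167. The 5 hepatocyte probes had a median LH minus HH difference of 0.32, with 2 higher at an unadjusted p under 0.05 and mean levels from 1.29 to 1.61 in HH mice and from 1.54 to 2.10 in LH mice. The 9 probes of stellate cells and fibroblasts had a median of -0.38 with 2 lower (HH -1.47 to -0.24, LH -1.77 to -1.19), and the 6 macrophage probes -0.26 with 1 lower (HH 1.57 to 3.15, LH 1.46 to 2.72). Of 6 lymphocyte probes 2 were lower, and of 4 erythroid probes 1 was lower. The 7 endothelial and 6 bile duct probes had 0 in either direction. The part of these differences in the values of the members was not tested.

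Other genes of the pathway were set beside the members in the liver HH *vs.* LH comparison. The list for complex I was taken by *Nduf* symbols alone. Of its 47 probes, 18 were lower and 0 higher at an unadjusted p under 0.05, with a median of -0.20. Of 121 probes of cytosolic ribosomal proteins 46 were lower and 1 higher, with a median of -0.19. The shares and medians of both lists lay near those of the members. Cytochrome c (*Cycs*), which carries electrons from complex III to complex IV, was at -0.33 (unadjusted p = 0.0386). Of 45 probes for assembly factors 11 were lower and 3 higher, with a median of -0.06. They included *Sdhaf4* of complex II at -0.42, and *Cox19* at -0.46 and *Surf1* at 0.30, which act in the assembly of complex IV (adjusted p = 0.216 to 0.223). Of 20 probes for regulators of mitochondrial genes 0 were lower and 3 higher. Those 3 were dimmer probes, since no regulator passed an unadjusted p of 0.05 by its brightest probe. By that probe the lowest p were those of *Pprc1* at -0.27, *Esrra* at -0.13 and *Gabpb1* at 0.14 (unadjusted p = 0.0776, 0.134 and 0.176). The 4 probes of the adenine nucleotide and phosphate carriers had 0 in either direction.

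The comparison of HH and HL offspring asks what a low diet after weaning did alone. In liver, 8 of the 57 probes (14%) were lower in HL at an unadjusted p under 0.05, against 0.656% of all probes, and 0 were higher, against 0.765%. The adjusted p was 1 for every member, and the median was -0.09. Without HL replicate 1, the liver with high pancreas markers, 10 were lower and the median was -0.12. The probe with the lowest unadjusted p was *Uqcrq*, with a difference of -0.30 ± 0.11 (unadjusted p = 0.00817). It measured 0.09, 0.50, 0.22, -0.09 and 0.54 in HH and from -0.25 through -0.04 to 0.22 in HL, with overlap. *Cox7a2* was at -0.52 ± 0.19 (unadjusted p = 0.0108), *Atp5e* at -0.35 ± 0.14 (unadjusted p = 0.018) and *Sdha* at 0.43 (unadjusted p = 0.0955). In HL replicates 5 and 6 *Sdha* was at 0.59 and 0.34, the highest of the group, and *Atp5e* at -0.63 and -0.67, the lowest. Their arrays had a narrow spread of log ratios over all probes (SD of 0.61 and 0.55). Without either of them alone 4 probes were lower. Without these arrays, and HH replicate 2 with an SD of 0.57, the differences were 0.12 for *Sdha*, -0.15 for *Uqcrq*, -0.23 for *Atp5e* and -0.36 for *Cox7a2*, and 0 of the 57 probes were lower at an unadjusted p under 0.05. With a repaired background of the same arrays 8 were lower.

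LL offspring, low on both occasions, had fewer lower members against HH than LH offspring had, though not every gene followed this. In liver, 5 of the 57 probes (8.77%) were lower in LL than in HH at an unadjusted p under 0.05, against 3.03% of all probes, and 0 were higher, against 1.91%. They were *Uqcr10*, *Uqcrh* (both probes), *Cox4i1* and *Atp5e*, the last at -0.48 ± 0.14 (unadjusted p = 0.00193, adjusted p = 0.824). Set against LH, 8 probes (14%) were higher in LL, against 2.88% of all probes, and 0 were lower, against 3.16%. *Cox7b* was at 0.50, *Cox7a2* at 0.39, *Cox6c* at 0.38 and *Sdhd* at 0.35 (adjusted p = 0.818 for each). The interaction of dam and offspring diet is the LL minus LH difference minus the HL minus HH difference. On its own it does not tell whether LL lay above HL. At an unadjusted p under 0.05 it was positive for 22 of the 57 probes (38.6%), against 3.07% of all probes, and negative for 1, *Sdha*, against 3.65%. The interaction was 0.91 ± 0.26 for *Cox7a2*, 0.56 ± 0.16 for *Atp5j2* and -0.85 ± 0.34 for *Sdha*, with adjusted p of 0.565, 0.563 and 0.676. Without the 3 narrow liver arrays, 9 probes were positive. The interaction shares its HH, HL and LH mice with the comparisons above, and so is not a separate observation.

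In colon, the median LH minus HH difference over the members was -0.14, and -0.04 with median centring. Within slides it was -0.45 on the slide of HH replicate 1, whose array had a narrow spread, and from -0.15 to 0.07 on the others. Only 5 of the 57 probes (8.77%) were lower at an unadjusted p under 0.05, against 3.51% of all probes. The probe of *Cox7b2*, near background, was the 1 that was higher, against 3.67%. The lower probes were *Atp5j2* at -0.30 (adjusted p = 0.553), *Cyc1* at -0.29, *Uqcrq* at -0.23, *Atp5o* at -0.23 and the dimmer probe of *Uqcrc1* at -0.12. With slide as a block 21 probes were lower, while the 3.51% of all probes is from the fit without that block. Mice on the same colon slide correlated at a mean of 0.349 in their deviations, and mice of different slides and groups at -0.069. With a repaired background or without HH colon replicate 1 the count of lower probes was 1. Without the mice that showed *Xist* it was 3. *Atp5e*, *Sdha* and *Cox7a2* had unadjusted p above 0.05 in colon. The LH minus HH difference itself was compared between the tissues in a fit of all 8 groups. At an unadjusted p under 0.05, 6 of the 57 probes were higher in liver, against 5% of all probes, and 4 of the 57 were lower, against 4.56%. None was called. The counts include repeated probes of *Sdha* and *Atp5b* among the higher and of *Uqcrh* among the lower. *Sdha* was at 0.86 (unadjusted p = 0.00422), *Atp5e* at -0.64 (unadjusted p = 0.00348) and *Uqcrh* at -0.45, with a lowest adjusted p of 0.289, so a difference between the tissues was not shown.

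Liver and colon were compared over all diets, with 23 liver and 24 colon mice. *Uqcrq*, *Atp5e* and *Atp5md* were called higher in liver and *Cox7a1* and *Cox5a* lower. In all, 5 of the 57 probes (8.77%) were called, 3 higher in liver, against 13.7% of all probes, and 2 lower, against 14.8%. The share was 14.9% for complex I, 40.0% for assembly factors, 75.2% for cytosolic ribosomal proteins and 45.5% for probes well above background on all arrays. Liver and colon arrays were scanned on different days, so tissue and scan day cannot be told apart.

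*Cox7a1*, the form of subunit VIIa that is known from heart and skeletal muscle, was the farthest apart. It ran from -4.00 through a median of -3.60 to -3.20 in liver and from -2.28 through -1.68 to -0.91 in colon. The tissues did not overlap, and the difference was -1.97 ± 0.06 (adjusted p = 4.19e-29), 3.92-fold lower in liver. Smooth muscle markers differed the same way, all 9 probes being called lower in liver with a median of -4.16. Markers of goblet cells, colon epithelium, adipocytes, bile duct and enteric neurons also had negative medians, of -4.39, -4.36, -3.13, -2.64 and -1.02. One direction did not hold for all: 1 colon epithelium probe and 3 of 7 skeletal muscle probes were called higher in liver. The part of any of these cell types in the result was not tested. *Cox5a*, a subunit on the matrix side, ran from -1.02 through -0.78 to -0.57 in liver and from -0.60 through -0.20 to 0.11 in colon. Only colon LL replicate 4 reached the liver range, and the difference was -0.60 ± 0.04, just past the fold threshold. It was not called without the mice that showed *Xist* (-0.56), with no background correction (-0.56), or with the narrow arrays left out or repaired (-0.57).

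*Uqcrq*, a small subunit of complex III, ran from -0.25 through 0.09 to 0.54 in liver and from -1.23 through -0.87 to -0.44 in colon. There was no overlap, and it was 1.97-fold higher in liver (0.98 ± 0.05, adjusted p = 4.95e-21). *Atp5e* ran from -0.78 through -0.39 to 0.45 in liver and from -1.27 through -1.02 to -0.43 in colon, a difference of 0.62 ± 0.07 with overlap. *Atp5md*, a small membrane subunit of ATP synthase, was higher by 0.59 ± 0.09 with overlap (0.12 ± 0.34 in liver and -0.47 ± 0.30 in colon, mean ± SD), close to the threshold. With median centring *Atp5e* was at 0.28 and *Atp5md* at 0.20, neither called.

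The other isoforms were compared pair by pair. *Cox6a2* and *Cox8b*, known from heart and skeletal muscle, were far below the reference in both tissues, at -4.58 ± 0.29 and -4.54 ± 0.58 in liver and -4.83 ± 0.24 and -4.09 ± 0.43 in colon (mean ± SD). *Cox8b* was called lower in liver under 6 of the other settings, from -0.59 to -1.08. Their partners *Cox6a1* and *Cox8a*, known from most tissues, were near the reference. *Cox6a1* was at -0.56 in liver and 0.00 in colon (difference -0.56 ± 0.08), and *Cox8a* at -0.25 and 0.24 (-0.48 ± 0.06). *Cox4i1*, the main form of subunit IV, was at -0.43 in liver and -0.12 in colon, whereas *Cox4i2* was below background in liver. *Cox7a2* was at 0.15 and -0.02 with an adjusted p of 0.0541. *Cox7a2l*, a factor of supercomplexes, was at -0.09 and 0.18. *Cox6b1* was at 0.35 and 0.16, and *Cox6b2*, known from testis, at -0.73 and -0.54. *Cox7b* was at -0.09 and -0.15. The genes *Atp5g1*, *Atp5g2* and *Atp5g3*, which encode the same mature c subunit of ATP synthase, differed by 0.21, -0.12 and 0.01 between the tissues.

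**Figure D5:**
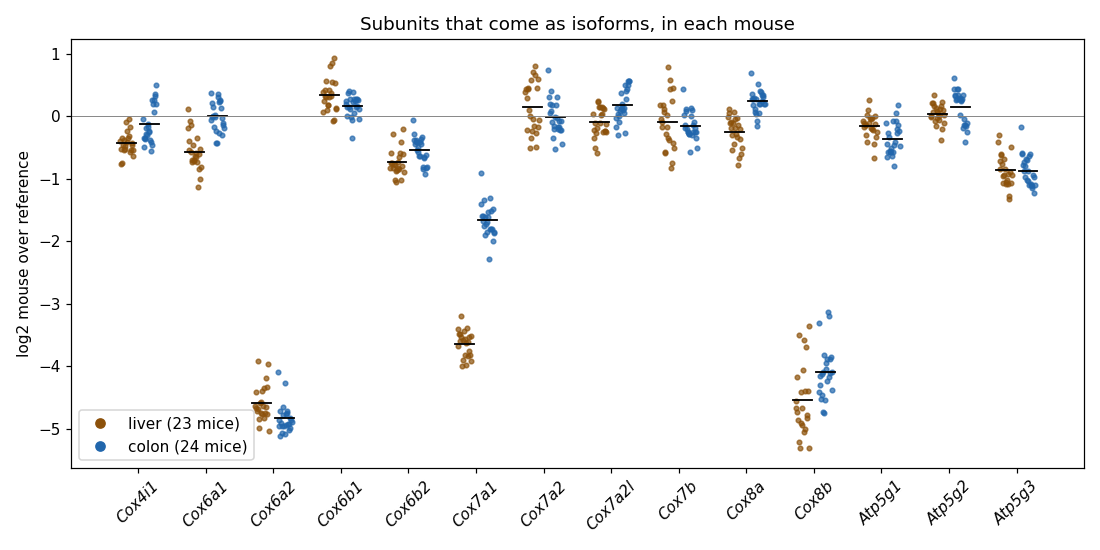
log2 mouse over reference (y axis) of subunit isoforms (x axis) in each liver and colon, with 1 point per mouse and a line at the mean. *Cox7a1* separates the tissues by 1.97 with no overlap, and *Cox6a2* and *Cox8b* lie near -4 or below in most mice of both.

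Complex II stood apart from complexes III, IV and ATP synthase by its uniform direction. All 5 probes were higher in liver, by 0.21 to 0.56, with a median of 0.36, though none reached the fold threshold. *Sdhb* had the largest difference, 0.27 ± 0.19 in liver and -0.29 ± 0.24 in colon. With median centring, which moved the median of all probes from 0.01 to 0.17 and that of the brightest 20% from -0.03 to -0.62, the median of complex II was -0.10 (log2). The other complexes had medians near 0 with the main scaling, 0.06 for complex III, -0.04 for complex IV and -0.01 for ATP synthase. Most genes of the complex I list, taken by their *Nduf* symbols, were also higher in liver with that scaling, such as *Ndufb5* at 0.695. A few were lower, down to -0.19 for *Ndufa12*.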

How the data were processed

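Total RNA of liver and colon was hybridised on 48 two-colour Agilent arrays. The authors deposited the scanner output (Feature Extraction 10.10.1.1, per the file headers), whose spot and background intensity values of both channels are not normalized, and a log2 ratio table that was used as an alternative. The submitters' processing notes name limma and R 3.0.2. Here, limma 3.58.1 in R 4.3.3 applied normexp (offset 50) and global loess within each array. Control spots and outlier spots were left out, spots of a probe were averaged and the ratio was turned to mouse over reference. Of 41174 probes, 27050 could be named through RefSeq accessions. The 4 groups of a tissue were fitted together, and all 8 groups for liver *vs.* colon. Calls needed more than a 1.5-fold change with an FDR (Benjamini and Hochberg, all probes) under 0.05; p-values, adjusted or not, are those of limma's moderated test. Precision is limited by the 5 or 6 arrays per group.

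The members and gene lists were chosen with earlier results of these data known, so lists are described and not tested. Values per mouse were given for called members, for the gene of each complex with the lowest p in liver HH *vs.* LH and HH *vs.* HL, and for isoforms, by the brightest probe; from other lists the 3 genes with the lowest p in liver HH *vs.* LH were named, except complex I and ribosomal genes, given as counts. On simulated data for liver HH *vs.* LH (41174 probes), 88 of 100 probes changed by 1 on the log2 scale and 99 of 100 changed by 2 were recovered, with 7 false calls. The simulated noise was independent between probes and mice, with no slide effect. No member differed by more than 0.76 in that comparison, and recovery of changes of that size or smaller was not tested. The 2 arrays of the HH animal correlated at 0.817 in their deviations, and no other HH pair above 0.372. Mice on the same liver slide correlated above 0.1 in 17 of 36 pairs, and in colon in 34 of 36 (mean 0.349), so not every pair was above 0.1 in either tissue. The slide was therefore fitted as an alternative, and its block values stand beside the results they change. Alternatives covered background correction, scaling, the slide, probe filters, the samples in the fit and each mouse left out.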

Additional observations from a re-analysis of the deposited data

Results flagged for a closer look

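Of 96 groups of 4 to 6 mice examined (medians over complexes and single named genes), 6 had a mouse far from the others of its group; chance gives about 1 in 20. Colon LL replicate 4 had a median over all members of -0.57, a median over ATP synthase of -0.70 and a *Cox5a* value of -0.60, each the lowest of its group. Liver HL replicate 5, on an array with a narrow spread of ratios, had a median over all members of -0.57, the lowest of its group. Liver HH replicate 4 had the highest *Uqcrh* value of its group, -0.07, and liver HH replicate 5 the highest *Uqcr10* value, 0.20. Without HH replicate 4 the LH minus HH difference of *Uqcrh* was -0.41, and without HH replicate 5 that of *Uqcr10* was -0.40, both still negative. No difference in diet effect between the tissues passed the threshold among the members.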

How the results depend on the processing

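Under the 13 settings other than leaving out a mouse, 583 recomputed values stayed the same, 21 were stronger, 23 weaker, 4 moved and 5 reversed. A single gene stayed the same if it kept its direction and side of the threshold. A count did so within 1.5 times, and a median if it shifted by less than the SD between mice, whatever its sign. Stronger and weaker values are genes that crossed the threshold or counts that changed by over 1.5 times. Medians that shifted further moved or, with a changed sign, reversed. Median centring changed the most: LH minus HH in liver had 0 lower members, a median of 0.01 over all members, 0.12 for ATP synthase, -0.03 for complex III and -0.09 for complex IV, HL minus HH had 0 lower, the interaction 1 positive, and colon LH minus HH 0 lower with a median of -0.04. Between tissues it gave 1 member higher and 18 lower in liver, a median of -0.36, *Cox6a2* at -0.29 and *Cox7a2* at -0.21. With the 5 narrow arrays left out, chosen after seeing the data, 2 members were called in liver LH minus HH, 0 were lower in HL minus HH, 9 were positive in the interaction, 2 were lower in colon LH minus HH, and 5 were higher in liver than in colon. In colon LH minus HH the count of lower members was 21 with slide as a replicate block, 1 with no background correction, with a repaired background or with the deposited table, and 3 without the mice that showed *Xist*; the block moved none of the other counts named here by over 1.5 times. Scanner-processed signals gave a median interaction of 0.33 and 1 member higher and 9 lower in liver than in colon; the repaired background gave 5 higher (and *Cox8b* at -0.62 in place of *Cox5a* among the lower), the table of the authors gave 4 lower and the mice without *Xist* 1 lower. The causes were not tested.

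With each mouse left out, liver LH minus HH had 0 to 1 called members and 17 to 23 lower ones, HL minus HH 3 to 13 lower (fewest without HH replicate 4, most without HL replicate 4), the interaction 16 to 23 positive and colon LH minus HH 1 to 13 lower (fewest without HH replicate 1, most without HH replicate 3). Between tissues 2 to 4 were called higher and 2 to 3 lower in liver. No paired analysis by animal was possible because the labels do not tie a colon to a liver.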
